A study of Arabidopsis thaliana with 12 samples.

Results

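The metacaspase family of Arabidopsis thaliana was followed in rosette transcripts of plants with altered levels of LSD1. The family comprised 9 genes, MC1 to MC9, taken by their locus identifiers from the 27416 genes of the count table, and all 9 were present and passed the filter on low counts. The labels describe 4 groups of 3 libraries, all in the Wassilewskija (Ws-0) accession. The lsd1-1 group was a mutant of LSD1. The LSD1-GFP group carried LSD1 fused to green fluorescent protein behind the constitutive viral 35S promoter. The LSD1-GR+DEX group carried LSD1 fused to the hormone-binding part of the glucocorticoid receptor behind the same promoter, and its seedlings were moved on a mesh to medium with 30 µM dexamethasone, the steroid that releases such a fusion into the nucleus. The wild type was untreated, as were lsd1-1 and LSD1-GFP. Plants were 2 weeks old and had 16 h of light per day. No LSD1-GR plants without dexamethasone, no wild type moved to dexamethasone and no line with green fluorescent protein alone were analysed here, so transgene, hormone and transfer cannot be told apart in LSD1-GR+DEX. The sources used here do not say how many independent transgenic lines were used.

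Metacaspases are cysteine proteases distantly related to animal caspases, but they cut after arginine or lysine. Type I members (MC1, MC2 and MC3) carry an N-terminal prodomain, while type II members (MC4 to MC9) lack it and have a long linker between their catalytic subunits. LSD1 is a zinc finger protein that holds back the spread of cell death in leaves. Genetic work in Arabidopsis placed MC1 as a promoter of that death and MC2 as a brake on it, and LSD1 binds MC1. Many metacaspases are made as inactive precursors, so a transcript level does not give protease activity.

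Libraries held 9781360 to 11503432 counts each. LSD1 itself (AT4G20380) averaged 0.0942 ± 0.0928 CPM (counts scaled to a common library size) in lsd1-1, where the 3 libraries held 3 counts in all, 2351 ± 305 CPM in LSD1-GFP, 178 ± 36.8 CPM in LSD1-GR+DEX and 23.6 ± 1.88 CPM in wild type (SD, n = 3 each). The 6 rosette leaf markers, all detected, summed to 33570 to 39420 CPM in lsd1-1, 50600 to 58780 in LSD1-GFP, 30380 to 32580 in LSD1-GR+DEX and 34060 to 43700 in wild type. Against wild type, 4 of 6 were called higher in LSD1-GFP (15.5% of all genes tested) and 4 lower in LSD1-GR+DEX (16.7%). In LSD1-GR+DEX, CAB3 at -0.15 and RCA at 0.08 on the log2 scale were not called. The 6 flower and inflorescence markers summed to 15.1 to 16.1 CPM in lsd1-1, 3.41 to 5.18 in LSD1-GFP, 10.5 to 12.7 in LSD1-GR+DEX and 17.6 to 19.8 in wild type. FUL alone averaged 10.85 CPM in lsd1-1, 2.55 in LSD1-GFP, 6.98 in LSD1-GR+DEX and 13.9 in wild type. Only 3 of these 6 markers passed the filter on low counts. In lsd1-1 against wild type SEP3 was called lower (log2 difference -0.83), while AP1 at 0.56 and FUL at -0.36 were not called. Whether the marker sums reflect amounts of tissue, and their part in the metacaspase levels, was not tested. All 6 root markers were also detected. Their sum was 51.6 and 54.0 CPM in LSD1-GR+DEX replicates 1 and 3, and 19.4 to 29.5 CPM in the other 10 libraries, LSD1-GR+DEX replicate 2 among them. Of these 6, 5 were higher in LSD1-GR+DEX replicates 1 and 3 than in any other library. In whole-rosette RNA, fewer cells of a type and less RNA per cell cannot be told apart.

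Scaled by transcript length, MC4 was the most abundant member in every library and made up 49.9% to 59.6% of the family's summed CPM per kilobase. MC4, a calcium-activated type II enzyme of leaves that cuts the precursor of a wound peptide, averaged 61.7 ± 3.10 CPM per kilobase in lsd1-1, 72.2 ± 3.45 in LSD1-GFP, 67.3 ± 3.41 in LSD1-GR+DEX and 58.8 ± 0.955 in wild type (SD, n = 3 each). MC1 came next at group means of 19.2 to 22.4 CPM per kilobase. MC3 had 14.1 to 17.6. The libraries of MC1 and MC3 overlapped in LSD1-GFP and wild type but not in lsd1-1 or LSD1-GR+DEX, and those of MC4 stood above both in every group. MC8, MC9 and MC2 lay between 1.32 and 10.2 CPM per kilobase as group means, and their order changed with the group. In lsd1-1, MC8 averaged 9.33 ± 2.59, MC9 5.92 ± 1.63 and MC2 5.84 ± 0.879 CPM per kilobase. In wild type, MC9 averaged 5.32 ± 2.15, MC2 4.09 ± 1.01 and MC8 2.48 ± 0.186 CPM per kilobase. MC5, MC6 and MC7 were lowest, with group means of 0.551 to 1.99 CPM per kilobase. The type I members together took 28.7% to 42.2% of the family sum.

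**Figure D1:**
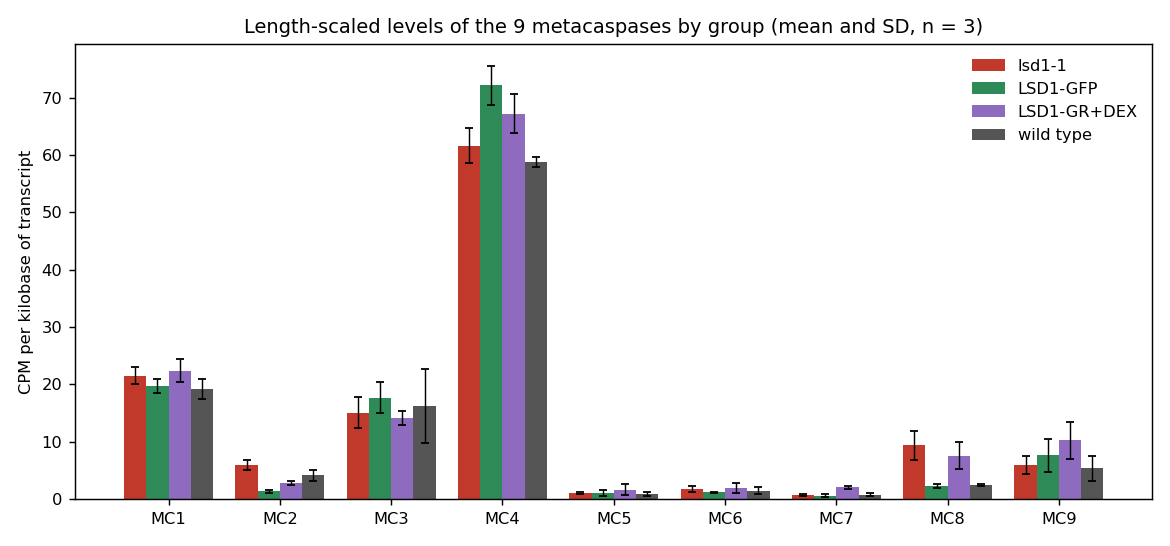
Mean TMM-scaled CPM per kilobase of transcript (y axis, linear) for each metacaspase (x axis) in lsd1-1, LSD1-GFP, LSD1-GR+DEX and wild type; bars start at 0 and error bars are the SD over 3 libraries. MC4 stands at 58.8 to 72.2 in the 4 groups, above MC1 at 19.2 to 22.4 and MC3 at 14.1 to 17.6.

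Differences among the 4 groups and between pairs of them were tested with edgeR's quasi-likelihood F test over 19487 genes, and a gene was called at a Benjamini-Hochberg adjusted p below 0.05. Across the 4 groups, 4 of the 9 members differed, namely MC2, MC4, MC7 and MC8, against 49.5% of all genes tested. In lsd1-1 against wild type, 1 of 9 members, MC8, was called and 8.30% of all genes were. With the replicate number as a block, in a fit of these 2 groups alone, 2 of 9 members (MC2 and MC8) and 3329 of 19014 genes (17.5%) were called. In LSD1-GFP against wild type, 2 of 9 were called, 1 higher and 1 lower, against 29.1% of all genes. With the replicate block in a fit of these 2 groups, MC2, MC4 and MC9 were called, and 8087 of 18864 genes (42.9%). In LSD1-GR+DEX against wild type, 4 of 9 were called, 3 higher and 1 lower, against 36.0% of all genes. Between the mutant and the overexpressor, 3 of 9 members were called in lsd1-1 against LSD1-GFP (26.5% of all genes), 2 higher and 1 lower. In LSD1-GR+DEX against LSD1-GFP, 3 of 9 were called, all higher, with 32.8% of all genes called. These shares of the family lie near those of all genes, so what follows is about single members. The 3 comparisons with wild type share its libraries and their results are not independent. The libraries of the 2 groups did not overlap for 1, 2 and 5 of 9 members in lsd1-1, LSD1-GFP and LSD1-GR+DEX against wild type. Over all genes tested the shares were 26.6%, 42.6% and 47.0%. In lsd1-1 and LSD1-GR+DEX against LSD1-GFP it was 4 of 9 members each, and 41.55% and 45.39% of all genes. Statements below that libraries do not overlap are to be read against these shares. The median log2 difference of the 9 members was 0.15 in lsd1-1, 0.05 in LSD1-GFP and 0.40 in LSD1-GR+DEX against wild type, while that of all genes tested was -0.01, 0.00 and 0.01 in the same order. In LSD1-GR+DEX this median was the value of MC6 (SE 0.37, adjusted p = 0.435), which was not called. With LSD1-GR+DEX replicate 2 as the only library of its group, MC6 stood at -0.58.

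**Figure D2:**
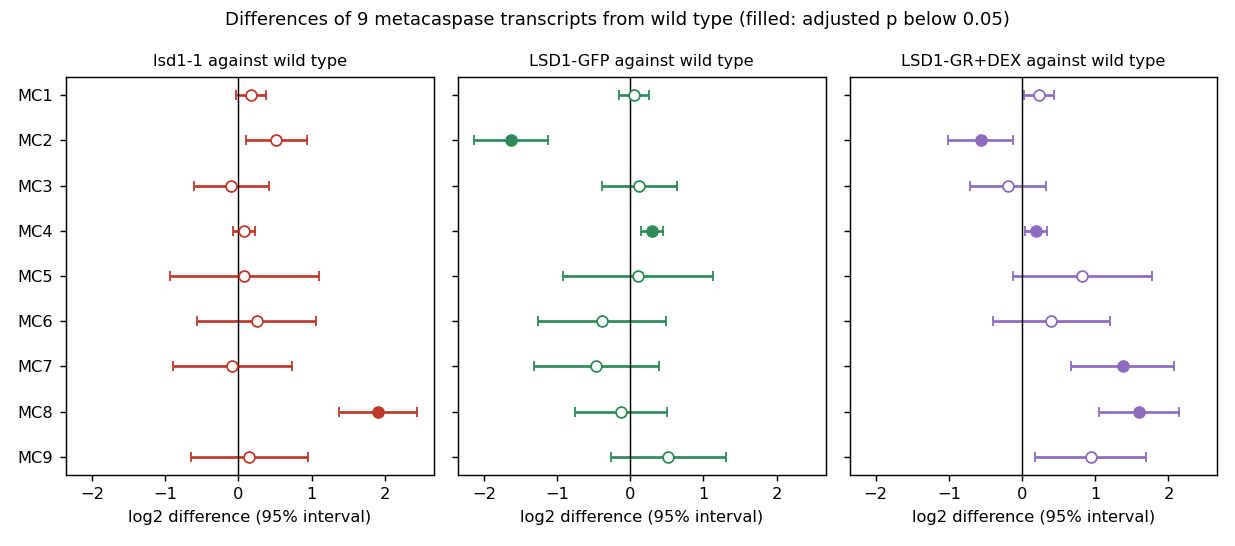
Log2 differences from wild type (x axis, with 95% intervals) of the 9 metacaspases (y axis) in lsd1-1, LSD1-GFP and LSD1-GR+DEX; filled points have an adjusted p below 0.05 in edgeR's quasi-likelihood F test. MC8 is filled at 1.90 in lsd1-1 and 1.60 in LSD1-GR+DEX, and MC2 is filled at -1.63 in LSD1-GFP and -0.57 in LSD1-GR+DEX.

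MC2 (AT4G25110, TAIR10.1 chr4:12887474-12890262, minus strand, 5 exons) was the type I member whose level moved most. It had 10.7, 9.09 and 12.3 CPM in lsd1-1, 2.52, 1.89 and 2.84 CPM in LSD1-GFP, 5.64, 4.23 and 5.25 CPM in LSD1-GR+DEX, and 9.35, 5.65 and 7.46 CPM in wild type. All LSD1-GFP libraries were below all others, and the LSD1-GR+DEX libraries were below all wild-type ones, the closest at 5.64 and 5.65 CPM. The lsd1-1 and wild-type ranges overlapped. MC2 fell in LSD1-GFP to 3.09-fold below wild type (log2 difference -1.63, SE 0.23, adjusted p = 0.000169, lower in 3 of 3 libraries). In lsd1-1 it was 4.42-fold above LSD1-GFP (log2 difference 2.14, SE 0.23, adjusted p = 1.73e-05). It was also 2.09-fold higher in LSD1-GR+DEX than in LSD1-GFP (log2 difference 1.06, SE 0.24, adjusted p = 0.00406), a call that was lost with LSD1-GR+DEX replicate 2 as the only library of its group (log2 difference 0.83, adjusted p = 0.125).

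The remaining differences of MC2 were smaller. In LSD1-GR+DEX against wild type its log2 difference was -0.57 (SE 0.21, 95% interval -1.01 to -0.12) with an adjusted p of 0.0477. That call was lost in 12 of 20 alternatives. Among the single libraries left out, it was lost without LSD1-GR+DEX replicate 1, 2 or 3, wild type replicate 1 or 3, lsd1-1 replicate 1 or 3 or LSD1-GFP replicate 1, at adjusted p of 0.0512 to 0.198. In lsd1-1 against wild type the log2 difference was 0.52 (SE 0.20, 95% interval 0.10 to 0.93, adjusted p = 0.136). With the replicate number as a block, since same-numbered libraries pair in these groups, it was 0.525 with an adjusted p of 0.0205, higher in 3 of 3 pairs, and MC2 then counted as called. The group means of MC2 followed the reverse order of the LSD1 means, from lsd1-1 at 10.7 ± 1.61 CPM through wild type at 7.49 ± 1.85 and LSD1-GR+DEX at 5.04 ± 0.727 to LSD1-GFP at 2.42 ± 0.484 CPM. Neighbours in this order did not all differ, as the tests above show. How many of all genes have means in this order is not given here.

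**Figure D3:**
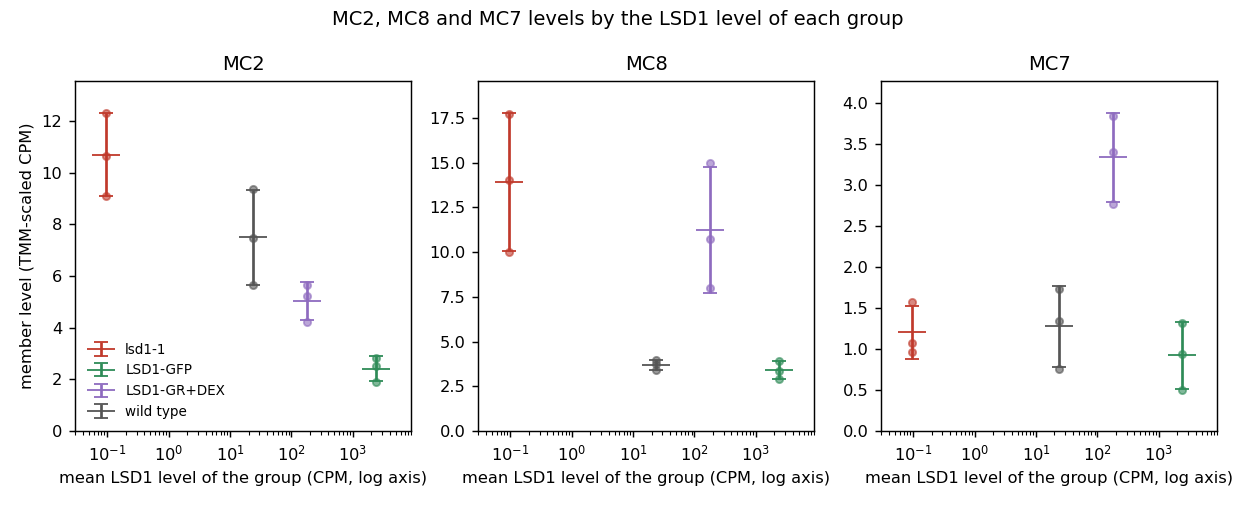
TMM-scaled CPM of MC2, MC8 and MC7 (y axes, linear) against the mean LSD1 level of each group (x axis, CPM, log scale); points are libraries, horizontal marks means and error bars SD (n = 3). MC2 means run from 10.7 CPM at the lowest LSD1 level to 2.42 CPM at the highest, while MC8 and MC7 follow no such order.

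The 250 bases upstream of the MC2 and MC8 transcript starts are shown because these members had the largest differences, in different groups. They come from the RefSeq TAIR10.1 genome of the Columbia accession, so Ws-0 bases may differ, and are written 5′ to 3′ on the gene's strand. Capitals mark TTGAC or its reverse complement, the core of the W-box that WRKY transcription factors bind. The search covered both strands. The MC2 window is chr4:12890263-12890512 and the MC8 window chr1:5614021-5614270, both on the minus strand.
MC2 upstream: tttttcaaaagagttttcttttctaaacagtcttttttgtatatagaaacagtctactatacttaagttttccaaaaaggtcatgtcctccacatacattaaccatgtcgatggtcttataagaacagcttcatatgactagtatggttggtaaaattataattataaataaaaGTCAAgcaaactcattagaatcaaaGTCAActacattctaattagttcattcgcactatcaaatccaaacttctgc
MC8 upstream: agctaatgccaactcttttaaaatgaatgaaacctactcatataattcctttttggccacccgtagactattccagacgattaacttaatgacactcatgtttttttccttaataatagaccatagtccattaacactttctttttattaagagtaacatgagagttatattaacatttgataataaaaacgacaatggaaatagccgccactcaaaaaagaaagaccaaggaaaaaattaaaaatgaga
The MC2 window holds 2 such cores, starting 76 and 51 bases before the transcript start, and 14.1% of 26709 windows of this length hold at least 2. The MC8 window holds none, nor TGACG, the G-box CACGTG or the heat shock pair GAANNTTC. At least 1 TTGAC was present in 45.0% of all windows, TGACG in 18.6%, CACGTG in 6.58% and GAANNTTC in 9.47%; TTGAC and TGACG can share bases. Of the other members, MC3, MC5 and MC9 have 1 TTGAC each, MC6 has 1 GAANNTTC and MC7 has 2 CACGTG. The MC7 sites start 83 and 11 bases before the transcript start, the first inside a tRNA gene that takes up 72 bases of the window. At least 2 CACGTG were present in 0.891% of all windows. The MC1 window, which holds none of the 4 motifs, lies for 219 bases in the neighbouring gene AT1G02160. A match in these letters is not a bound site.

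MC1 (AT1G02170, chr1:411664-413554, plus strand, 5 exons), the member that promotes death in lsd1 mutants, passed no test. Its levels were 28.9, 32.4 and 32.5 CPM in lsd1-1, 26.7, 29.8 and 29.7 CPM in LSD1-GFP, 31.6, 35.8 and 30.1 CPM in LSD1-GR+DEX, and 29.4, 25.0 and 29.0 CPM in wild type. The groups lie close together, though all LSD1-GR+DEX values exceeded all wild-type ones. The log2 difference from wild type was 0.17 in lsd1-1 (95% interval -0.04 to 0.38, adjusted p = 0.354), 0.05 in LSD1-GFP (-0.16 to 0.26, adjusted p = 0.759) and 0.23 in LSD1-GR+DEX (0.02 to 0.43, adjusted p = 0.0810). These intervals make MC1 one of the most tightly measured members, beside MC4.

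MC3 (AT5G64240, chr5:25695620-25697416, plus strand, 5 exons), the least studied type I member, had 17.5, 24.0 and 25.0 CPM in lsd1-1, 22.8, 24.6 and 30.5 CPM in LSD1-GFP, 19.9, 19.6 and 23.0 CPM in LSD1-GR+DEX, and 18.1, 18.5 and 34.9 CPM in wild type. The wild-type replicate 3 was the highest of the 12 libraries, and replicate 3 was also the highest library within each other group. No comparison of MC3 passed the test (adjusted p = 0.642 for any difference among the 4 groups). Without wild type replicate 3, MC3 was higher in LSD1-GFP than in wild type (log2 difference 0.50, adjusted p = 0.0303), against 0.12 with it (SE 0.23, adjusted p = 0.737).

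**Figure D4:**
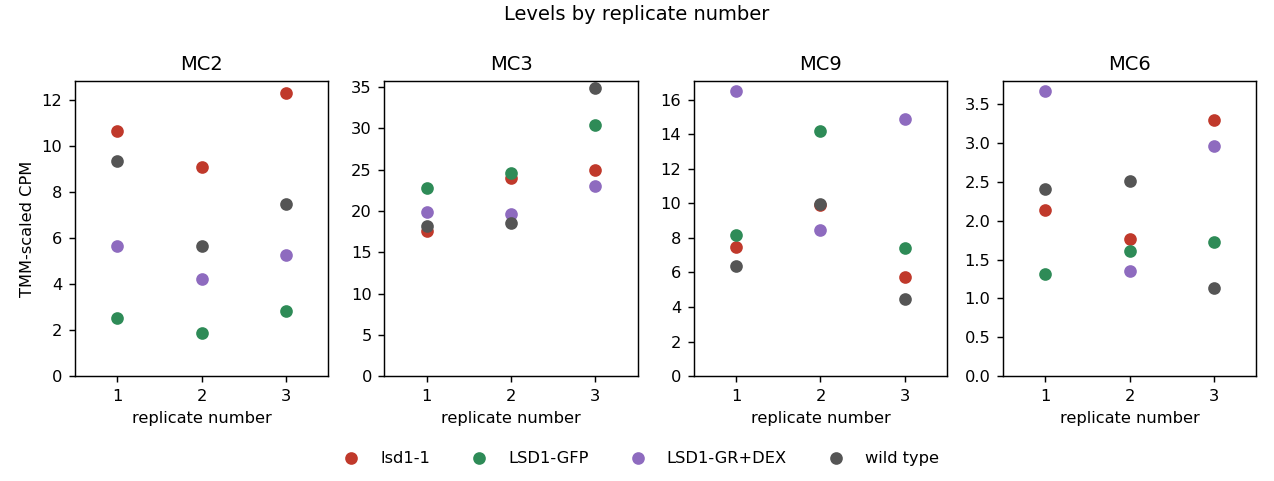
TMM-scaled CPM (y axes, linear) of MC2, MC3, MC9 and MC6 by replicate number (x axis) in lsd1-1, LSD1-GFP, LSD1-GR+DEX and wild type; each point is 1 library and the numbers have no order. Replicate 3 is the highest library for MC3 in all 4 groups, and replicate 2 is the highest for MC9 in lsd1-1, LSD1-GFP and wild type but the lowest in LSD1-GR+DEX.

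MC7, MC6, MC5 and MC4 stand in this order on the plus strand of chromosome 1, in a tandem array of 10800 bases (chr1:29833839-29844638). Each has 2 exons. Their coding sequences are alike, with MC5 and MC6 closest at 81.3% identity over aligned bases. The longest run of bases shared by any 2 members was 23 bases. For MC4 and MC5 it was tcagactcttgtcacagtggtgg, from coding base 406 in both. The sources used here give neither read length nor the treatment of reads that match more than 1 gene, so a part of the low counts of MC5, MC6 and MC7 could belong to a neighbour and their levels are uncertain.

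MC4 (AT1G79340, chr1:29842587-29844638) had 103.9, 113.2 and 113.9 CPM in lsd1-1, 122.2, 133.9 and 131.2 CPM in LSD1-GFP, 121.7, 113.6 and 125.6 CPM in LSD1-GR+DEX, and 105.2, 106.9 and 103.5 CPM in wild type. Both overexpressing groups were above wild type without overlap, while lsd1-1 and wild type overlapped. Of all genes tested, 42.6% in LSD1-GFP and 47.0% in LSD1-GR+DEX did not overlap with wild type. MC4 rose 1.23-fold in LSD1-GFP relative to wild type (log2 difference 0.30, SE 0.07, adjusted p = 0.00576), and this call held in all 20 alternatives. In LSD1-GR+DEX against wild type the log2 difference was 0.19 (SE 0.07, adjusted p = 0.0434). That call was lost in 14 of 20 alternatives, with a value of 0.115 and an adjusted p of 0.477 when LSD1-GR+DEX replicate 2 was the only library of its group. Leaving out any 1 of LSD1-GR+DEX replicates 1 and 3, LSD1-GFP replicate 3, the 3 lsd1-1 or the 3 wild-type libraries also ended it, at adjusted p of 0.0509 to 0.149. In lsd1-1 the log2 difference was 0.07 from wild type (95% interval -0.08 to 0.22, adjusted p = 0.653). MC4 was lower in lsd1-1 than in LSD1-GFP (log2 difference -0.23, SE 0.07, adjusted p = 0.0275). In 7 of 20 alternatives this call was lost. It was lost without lsd1-1 replicate 1, LSD1-GFP replicate 2 or 3 or wild type replicate 1 (-0.168 to -0.215, adjusted p 0.0507 to 0.150). The same held without the low-count filter (adjusted p = 0.0552) and in a fit of the 2 groups alone (adjusted p = 0.0581). With LSD1-GR+DEX replicate 2 as the only library of its group the difference was -0.208.

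MC7 (AT1G79310, chr1:29833839-29835728), a little-studied type II member, had 0.969, 1.58 and 1.07 CPM in lsd1-1, 0.503, 0.946 and 1.32 CPM in LSD1-GFP, 3.40, 3.85 and 2.77 CPM in LSD1-GR+DEX, and 1.74, 1.35 and 0.756 CPM in wild type. All LSD1-GR+DEX libraries were above all others, while lsd1-1, LSD1-GFP and wild type overlapped. The counts were small, 107 summed over the LSD1-GR+DEX libraries, and 39 in lsd1-1, 28 in LSD1-GFP and 41 in wild type. MC7 rose 2.60-fold in LSD1-GR+DEX relative to wild type (log2 difference 1.38, SE 0.33, adjusted p = 0.00498) and 3.58-fold relative to LSD1-GFP (log2 difference 1.84, SE 0.35, adjusted p = 0.00113). Replicate 2 had the highest MC7 level of the LSD1-GR+DEX libraries and a low root marker sum. With this replicate as the only library of its group, the log2 difference from wild type was 1.585. The part of root tissue in MC7 levels was not tested.

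MC5 (AT1G79330, chr1:29838551-29840317) had 1.26, 1.67 and 1.69 CPM in lsd1-1, 1.51, 2.36 and 0.813 CPM in LSD1-GFP, 4.03, 1.15 and 2.57 CPM in LSD1-GR+DEX, and 1.83, 1.71 and 0.850 CPM in wild type. MC6 (AT1G79320, chr1:29836644-29838140) had 2.13, 1.76 and 3.30 CPM in lsd1-1, 1.31, 1.61 and 1.73 CPM in LSD1-GFP, 3.67, 1.35 and 2.96 CPM in LSD1-GR+DEX, and 2.41, 2.51 and 1.13 CPM in wild type. For both genes LSD1-GR+DEX replicates 1 and 3 were high and replicate 2 was low, as were the root marker sums; the part of root tissue in these levels was not tested. Neither gene passed any comparison with all 12 libraries, and against wild type the LSD1-GR+DEX log2 difference was 0.83 for MC5 (SE 0.44, adjusted p = 0.163) and 0.40 for MC6 (SE 0.37, adjusted p = 0.435). Without LSD1-GR+DEX replicate 2, MC5 was called above wild type (log2 difference 1.15, adjusted p = 0.0297), and both were called above LSD1-GFP (1.06 for MC5, adjusted p = 0.0449, and 1.08 for MC6, adjusted p = 0.0279). With replicate 2 as the only library of its group, the differences from wild type were -0.34 for MC5 and -0.58 for MC6.

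Of the genes beside the array, 1 was called. NUA, a nuclear pore protein gene before MC7, had log2 differences of -0.05 in lsd1-1, 0.02 in LSD1-GFP and -0.02 in LSD1-GR+DEX against wild type, none of them called. EMB1135, which lies after MC4 on the other strand and overlaps it by 18 bases, fell in all 3 groups, by 0.26, 0.19 and 0.44 on the log2 scale in the same order (adjusted p = 0.0265, 0.0467 and 0.000209). OCT2, an organic cation transporter gene, passed no test. The sources used here do not give the strand setting of the counting, so reads of MC4 and EMB1135 in their shared bases cannot be told apart, nor those of MC1, MC3 and MC5 and the genes that overlap them on the other strand by 33, 63 and 1725 bases.

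MC8 (AT1G16420, chr1:5612150-5614020, minus strand, 2 exons), a type II member tied to death under ultraviolet light and hydrogen peroxide, was the single member called in lsd1-1 against wild type in the fit without a replicate block, and 1 of 2 with it. It had 17.7, 10.02 and 14.0 CPM in lsd1-1, 3.92, 2.93 and 3.35 CPM in LSD1-GFP, 10.7, 15.0 and 8.01 CPM in LSD1-GR+DEX, and 3.76, 3.95 and 3.40 CPM in wild type. The lsd1-1 and LSD1-GR+DEX libraries were all high and overlapped each other, and the LSD1-GFP and wild-type libraries were all low and overlapped. Thus MC8 was high in the group with almost no LSD1 transcript and in 1 of the 2 groups with more of it than wild type.

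MC8 rose 3.74-fold in lsd1-1 relative to wild type (log2 difference 1.90, SE 0.25, 95% interval 1.37 to 2.44, adjusted p = 0.000418). Relative to wild type it was 3.03-fold higher in LSD1-GR+DEX too (log2 difference 1.60, SE 0.25, adjusted p = 0.000288). In LSD1-GFP the log2 difference was -0.12 (SE 0.29, 95% interval -0.75 to 0.50, adjusted p = 0.792). The 2 LSD1 fusions differed from each other, with MC8 3.30-fold higher in LSD1-GR+DEX than in LSD1-GFP (log2 difference 1.72, SE 0.26, adjusted p = 0.000191), and lsd1-1 was 4.08-fold above LSD1-GFP (adjusted p = 7.42e-05). All 4 calls held in each of 20 alternatives. With LSD1-GR+DEX replicate 2, the highest of its group for MC8, alone in that group, MC8 was higher than in wild type by 2.02 on the log2 scale. The part of root tissue in MC8 levels was not tested. The difference between lsd1-1 and LSD1-GR+DEX was not tested.

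MC9 (AT5G04200, chr5:1153740-1155040, plus strand, 1 exon), which clears the contents of dying xylem vessel cells, had 7.46, 9.93 and 5.71 CPM in lsd1-1, 8.15, 14.2 and 7.41 CPM in LSD1-GFP, 16.5, 8.46 and 14.9 CPM in LSD1-GR+DEX, and 6.36, 9.96 and 4.44 CPM in wild type. LSD1-GR+DEX replicates 1 and 3 were the highest of the 12 libraries, and its replicate 2 fell within the other groups. MC9 was 0.94 higher in LSD1-GR+DEX than in wild type on the log2 scale (SE 0.35, 95% interval 0.17 to 1.70) with an adjusted p of 0.0558. It was called without LSD1-GR+DEX replicate 2 (1.15, adjusted p = 0.0183), wild type replicate 2 (1.297, adjusted p = 0.0205) or LSD1-GFP replicate 2 (0.93, adjusted p = 0.0353), and had a difference of 0.29 (adjusted p = 0.717) with LSD1-GR+DEX replicate 2 as the only library of its group. It also passed with DESeq2 (adjusted p = 0.0224), limma voom (0.0421) and the filter of 5 CPM (0.0488). The sum of 6 xylem markers was 94.3, 69.3 and 111 CPM in LSD1-GR+DEX and 57.3, 65.2 and 99.8 CPM in wild type. The part of root or xylem tissue in MC9 levels was not tested.

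In LSD1-GFP against wild type MC9 had a log2 difference of 0.52 (SE 0.36, adjusted p = 0.313). With the replicate number as a block it was 0.51 with an adjusted p of 0.00748, higher in 3 of 3 pairs. That fit, of these 2 groups alone, called 42.9% of all genes. The sum of 6 xylem markers was 73.0, 77.7 and 115 CPM in LSD1-GFP and 57.3, 65.2 and 99.8 CPM in wild type, also higher in every same-numbered pair. Within lsd1-1, LSD1-GFP and wild type, however, this sum was highest in replicate 3, where MC9 was lowest. In LSD1-GR+DEX both were lowest in replicate 2. The part of xylem tissue in the MC9 difference was not tested. Replicate 2 held the highest MC9 level in lsd1-1, LSD1-GFP and wild type.

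**Figure D5:**
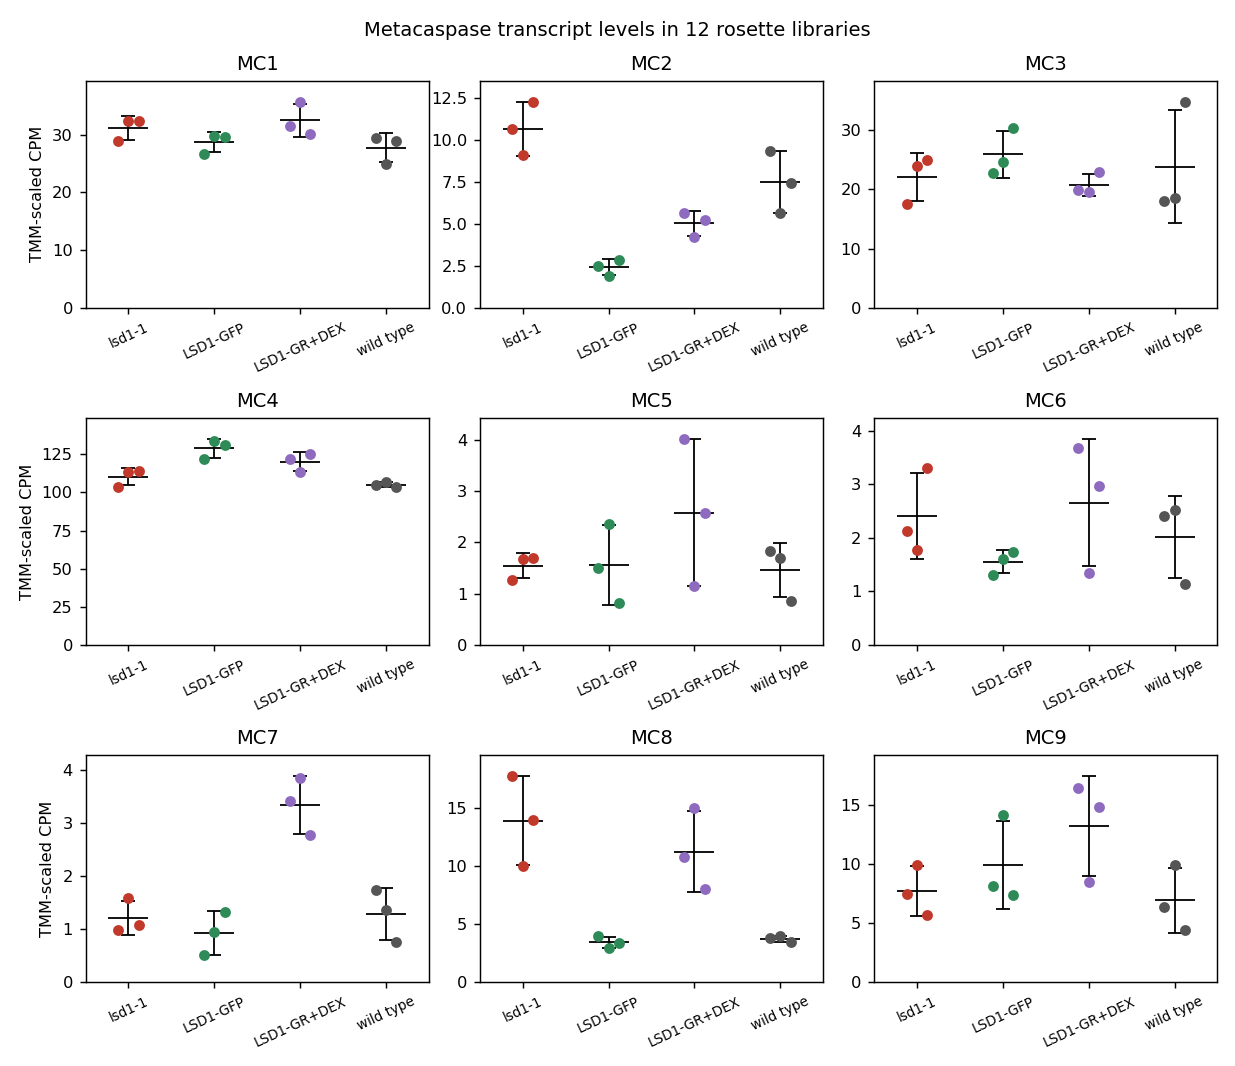
TMM-scaled CPM (y axes, linear, from 0) of each metacaspase in lsd1-1, LSD1-GFP, LSD1-GR+DEX and wild type (x axis); points are the 3 libraries of a group, horizontal marks are means and error bars SD. MC8 is high in lsd1-1 and LSD1-GR+DEX, MC7 in LSD1-GR+DEX, and MC2 is lowest in LSD1-GFP.

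Genes that act with metacaspases were read from lists, each against wild type. Over all genes tested, the lsd1-1 comparison called 5.19% higher and 3.10% lower, the LSD1-GFP one 15.5% higher and 13.6% lower, and the LSD1-GR+DEX one 19.3% higher and 16.7% lower; each list's counts are to be read against these shares. Of 6 tested genes for metacaspase substrates, the inhibitor SERPIN1 and the PEP receptors, 0 passed in lsd1-1, 3 rose in LSD1-GFP and 4 rose in LSD1-GR+DEX, and none fell. SERPIN1, the serpin that blocks MC9 and other proteases, averaged 32.3 ± 1.57 CPM in LSD1-GFP and 23.9 ± 2.64 CPM in wild type (SD, n = 3 each; log2 difference 0.43, adjusted p = 0.0107). TSN1 and TSN2, Tudor nucleases cut by metacaspases, rose in LSD1-GFP by 0.39 and 0.34 and in LSD1-GR+DEX by 0.41 and 0.37 on the log2 scale (adjusted p 0.00609 to 0.0198). The receptors PEPR1 and PEPR2 rose in LSD1-GR+DEX by 0.59 and 0.87 (adjusted p = 0.00261 and 0.00298). The list's median log2 difference was 0.09 in lsd1-1, 0.34 in LSD1-GFP and 0.39 in LSD1-GR+DEX.

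Of 6 tested PROPEP genes, which encode precursors of the PEP danger peptides and include substrates of MC4, 1 rose in lsd1-1 (5.19% of all genes), 0 in LSD1-GFP (15.5%) and 3 in LSD1-GR+DEX (19.3%). PROPEP3 averaged 2.70 ± 0.349 CPM in lsd1-1, 0.991 ± 0.455 CPM in LSD1-GR+DEX and 0.279 ± 0.0854 CPM in wild type (SD, n = 3 each). Its log2 difference was 3.21 in lsd1-1 (SE 0.40, adjusted p = 0.000240) and 1.79 in LSD1-GR+DEX (SE 0.47, adjusted p = 0.00866). PROPEP3 did not pass the filter on low counts when the lsd1-1 libraries were left out, so it entered the test through the group where it was high, and its call gives no weight to the list's count. PROPEP1 and PROPEP4 rose in LSD1-GR+DEX by 0.87 and 1.00 (adjusted p = 0.0248 and 0.0178). The log2 differences of MC4, which cuts PROPEP1, stood at 0.07 in lsd1-1 and 0.19 in LSD1-GR+DEX.

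In the list of LSD1 relatives and genes that lsd1 cell death needs, 4 of 11 rose and 1, LSD1 itself, fell in lsd1-1, where 8.30% of all genes were called. PAD4 and EDS1, partners in immune signalling, rose by 0.96 and 0.73 on the log2 scale (adjusted p = 0.00144 and 0.000223). RBOHD, an oxidase that makes superoxide, rose by 0.62 (adjusted p = 0.000866) and the helper receptor ADR1-L1 by 0.33 (adjusted p = 0.0469). In LSD1-GFP 3 rose and 1 fell, and in LSD1-GR+DEX 5 rose and 1 fell, LSD1 among the risers in both. The gene that fell was LOL1, an LSD1 relative that promotes death, at -0.54 in LSD1-GFP (adjusted p = 0.0157) and -1.63 in LSD1-GR+DEX (adjusted p = 6.84e-06).

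Among 9 tested proteases of other families linked to plant death, 1 rose in lsd1-1, 3 rose in LSD1-GFP, and 3 rose and 1 fell in LSD1-GR+DEX, near the 29.1% and 36.0% of all genes called in the fusion groups. The papain-like protease gene RD19A averaged 271 ± 23.0 CPM in LSD1-GFP and 153 ± 9.0 CPM in wild type (SD, n = 3 each; log2 difference 0.83, adjusted p = 1.72e-05). Of 15 autophagy genes, 2 rose in lsd1-1, 2 rose and 1 fell in LSD1-GFP, and 5 rose and 2 fell in LSD1-GR+DEX, where 8.30%, 29.1% and 36.0% of all genes were called. ATG8H, which coats autophagosome membranes, rose in all 3, by 0.56, 0.56 and 0.92 on the log2 scale (adjusted p = 0.0267, 0.00994 and 0.000234). Of 15 genes of developmental cell death and xylem, 0 passed in lsd1-1, 1 fell in LSD1-GFP and 3 rose in LSD1-GR+DEX, against 29.1% and 36.0% of all genes called in the fusion groups. The root marker sums were 51.6, 19.4 and 54.0 CPM in the LSD1-GR+DEX libraries, and their part in this list was not tested. BFN1, a nuclease of dying tissues, was among the 3, at 6.99 ± 1.12 CPM in LSD1-GR+DEX and 3.68 ± 1.55 CPM in wild type (SD, n = 3 each; log2 difference 0.92, adjusted p = 0.0348).

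For the 4 members that differed among the groups, the genes nearest in pattern were found by the root mean square (RMS) difference of log2 CPM, each gene centred on its own mean over 12 libraries. For MC2 they were AT1G17610 at 0.21, AT4G25940 at 0.30 and CRH1, a MORC-type ATPase gene, at 0.32, where the median over all genes was 0.85. For MC8 they were AT1G68620 at 0.23, the ethylene response factor gene ERF1 at 0.29 and AT1G51890 at 0.31, against a median of 0.96. MC7 lay closest to AT4G35160 at 0.29, the cytochrome P450 gene CYP702A6 at 0.31 and the zinc transporter gene ZIP5 at 0.33, against a median of 0.83. For MC4, which varied little, the nearest were AT4G32285 at 0.04, GAMMA CA3 at 0.05 and GDI2 at 0.05, against a median of 0.28. The points share libraries and depth, and these values are a description.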

How the data were processed

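Polyadenylated RNA of 12 rosette samples was sequenced from stranded libraries, per the labels' protocols. The deposited table holds raw counts per gene, which the authors made with Trimmomatic 0.30, GSNAP and HTSeq 0.6.1 on TAIR10, per the submitters' processing notes. The sources used here do not give settings, strand mode or read length. Of its loci, 26719 were matched to RefSeq TAIR10.1.

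Counts were analysed in R 4.3.3 with edgeR 4.0.16. filterByExpr kept 19487 genes, library sizes were scaled by TMM, and all 12 libraries entered 1 quasi-likelihood fit (biological coefficient of variation 11.2%). Tests were two-sided, Benjamini-Hochberg adjusted p below 0.05 was a call, and intervals are 95%. The fit was tested on simulated data. Levels are TMM-scaled CPM. The labels name 3 biological repeats per group. Each p-value sets a group difference against the spread between such repeats. Whether that spread includes independent transgenic lines is not known.

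All 9 members, LSD1, up to 4 called genes of each list with the lowest adjusted p, the 3 genes most alike in pattern and the genes beside the array could be named; not all are. Members and lists were chosen with earlier results of these data known. Alternatives were RLE factors, no filter, a filter of 5 CPM in 3 libraries, DESeq2 1.42.0, limma 3.58.1 voom, the 2 compared groups alone, a replicate block, each library left out, and, added after the root marker sums were seen, LSD1-GR+DEX replicate 2 as the only library of its group, which is then assumed to vary like the other groups.

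The replicate numbers come from the sample titles. Deviations from the group means correlated between same-numbered libraries at 0.23, 0.15 and 0.37 (lsd1-1 and wild type), 0.20, 0.21 and 0.45 (LSD1-GFP and wild type) and 0.19, 0.13 and 0.32 (lsd1-1 and LSD1-GFP) across 19487 genes, all above 0.1, so the numbers pair these groups.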

Additional observations from a re-analysis of the deposited data

How the results depend on the processing

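Over 20 alternatives, the calls of MC8 in lsd1-1 and LSD1-GR+DEX against wild type, of MC2 and MC4 in LSD1-GFP against wild type and of MC2 and MC8 in lsd1-1 against LSD1-GFP kept direction and threshold, as did MC7 in LSD1-GR+DEX over 19; MC5, MC6 and MC7 have no value under the filter of 5 CPM. Of all values not called at first, 589 kept side and sign, 25 changed sign and 13 passed the threshold; of called values 224 held and 34 missed it. The cause was not tested. Genes called in lsd1-1 against wild type numbered 3329 with the replicate block, and members 2. The block changed no other call in the paired comparisons but those given for MC2 and MC9. In LSD1-GR+DEX against wild type, members called were 2 in a fit of the 2 groups alone, and 2 with replicate 2 as the only LSD1-GR+DEX library, where 4301 genes were called, and 3865 against LSD1-GFP. In that fit the log2 differences from LSD1-GFP were -0.43 for MC5, -0.18 for MC6 and -0.22 for MC9, and those from wild type were -0.34 for MC5 and -0.58 for MC6. MC5 in lsd1-1 against LSD1-GFP was 0.08 with limma voom and 0.001 with the block.

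With each library left out in turn, genes called in lsd1-1 against wild type ranged from 764 (without wild type replicate 1) to 2070, with 1053 without lsd1-1 replicate 1, 975 without its replicate 2 and 1060 without wild type replicate 3. Members called ranged from 2 to 5 in LSD1-GR+DEX against wild type and from 3 to 5 against LSD1-GFP (5 without LSD1-GR+DEX replicate 2). Log2 differences from wild type ranged in lsd1-1 from -0.26 to 0.28 for MC3, -0.19 to 0.27 for MC5, -0.056 to 0.44 for MC6, -0.35 to 0.20 for MC7 and -0.092 to 0.51 for MC9. In LSD1-GFP they ranged from -0.025 to 0.10 for MC1, -0.051 to 0.50 for MC3 and -0.33 to 0.41 for MC5, and in LSD1-GR+DEX from -0.37 to 0.18 for MC3. MC5 in lsd1-1 against LSD1-GFP ranged from -0.33 to 0.41.

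For LSD1-GR+DEX not all correlations of same-numbered libraries were above 0.1, so its numbers were not taken as pairs. They were 0.04, 0.21 and 0.30 with wild type, where 4 of 6 libraries correlated best with their own number. With LSD1-GFP the correlations were -0.03, 0.11 and 0.31, and 3 of 6 libraries did so. With the block, MC4 against wild type was 0.17 (adjusted p = 0.0954) and MC3 against LSD1-GFP -0.32 (adjusted p = 0.0203). Counts of 5 to 45 per library limit MC5, MC6 and MC7.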
